A study of Mus musculus with 10 samples.

Results

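The respiratory chain and ATP synthase of mouse microglia were described through the nuclear genes of their subunits. Members were every gene of the deposited table whose symbol begins with Nduf and one of the letters a, b, c, s or v, is Sdha, Sdhb, Sdhc or Sdhd, begins with Uqcr or with Atp5, or begins with Cox and a subunit number in the nuclear range. This rule used no measured value. It found 85 of 19782 genes, and 80 of the 12505 genes with enough counts to be tested were members. They fell into complex I (38 genes, 38 tested), complex II (4, all tested), complex III (8, all tested), complex IV (18, of which 13 were tested) and ATP synthase, also called complex V (17, all tested). Ndufa4, long counted with complex I, was placed in complex IV. Subunits encoded in mitochondrial DNA were not analysed here.

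Microglia, the resident macrophages of the brain, were sorted from the hippocampus as CD45low CD11b+ cells, and RNA was sequenced from Smart-Seq libraries, 1 per sample. The 5xFAD repopulated group (3 libraries) came from 5xFAD mice that ate PLX3397 in their chow (290 mg/kg) for 1 month from 4 months of age, and then normal diet for 1 month while microglia returned. PLX3397 blocks the CSF1 receptor, on which microglia depend, and so depletes them. The 5xFAD control group (3 libraries) came from 5xFAD mice on normal diet. The wild-type group (WT, 4 libraries) was on normal diet too. As background, 5xFAD mice carry mutant human transgenes driven in neurons by a Thy1 promoter and form amyloid plaques. The labels give no age for the control and wild-type mice. Wild-type mice given PLX3397 were not analysed here. No label ties the libraries of a group to different animals. The p-values therefore cover only the spread among these samples, and how much of that spread is technical is not known. Y-linked transcripts differ within the control and the wild-type group (values below), so neither group holds only repeats of 1 sample.

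Complexes I to IV of the inner mitochondrial membrane pass electrons from NADH and succinate to oxygen, and complexes I, III and IV pump protons as they do so. ATP synthase lets the protons back through its c-ring and turns the rotation into ATP. Each complex has a catalytic or redox core, which carries the flavins, iron-sulfur clusters, haems or nucleotide sites. All but complex II also have small supernumerary subunits that surround the core and are needed for its assembly or stability. Resting microglia rely largely on oxidative phosphorylation, and a shift toward glycolysis is known in microglia exposed to inflammatory stimuli.

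Promoter windows around the start of each gene were taken from RefSeq (GRCm38.p6). The table held 75 windows for 70 of the 85 members. Each was searched on both strands for the exact letters of 4 motifs whose factors are known regulators of respiratory genes, namely NRF1, ETS (the family of GABPA), YY1 and ERR. The NRF1 palindrome (the capitals in the Uqcrc1 window) stood in 5 windows (6.67%, against 2.02% of the windows of all tested genes) and the ETS letters CCGGAAG in 17 (22.7%, against 17.1%). The YY1 letters AAGATGGCG stood in 7 windows (9.33%, against 2.89%) and the ERR letters TCAAGGTCA in 2 (2.67%, against 0.263%). Among 32 windows of members that rose in 5xFAD control microglia, 8 held ETS, 4 YY1, 2 NRF1 and 1 ERR letters. Among 39 windows of members that did not pass the counts were 9, 3, 3 and 1. The following 4 windows are shown because the results below turn on their genes, with motif letters in capitals. Ndufa1, an accessory complex I subunit gene, rose in both 5xFAD groups and held none of the 4 motifs (chrX:37191189-37191488, minus strand). Cox6a1, the ubiquitous isoform of a complex IV subunit, rose in both 5xFAD groups and held NRF1 and ETS letters (chr5:115348909-115349208, minus strand). Uqcrh, an accessory complex III subunit gene, rose in 5xFAD control microglia and held ETS letters (chr4:116075021-116075320, minus strand). Uqcrc1, a core complex III subunit gene, did not pass in any comparison and held NRF1 letters (chr9:108936398-108936697, plus strand). A match is a description of these letters and no measurement of binding. The table had no window for Cox6a2 or Cox4i1.
Ndufa1: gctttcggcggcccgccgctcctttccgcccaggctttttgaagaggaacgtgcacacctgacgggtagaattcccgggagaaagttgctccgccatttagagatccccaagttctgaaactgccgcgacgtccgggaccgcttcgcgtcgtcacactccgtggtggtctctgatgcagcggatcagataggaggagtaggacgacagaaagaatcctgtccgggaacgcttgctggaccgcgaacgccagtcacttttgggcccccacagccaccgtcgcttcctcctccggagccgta
Cox6a1: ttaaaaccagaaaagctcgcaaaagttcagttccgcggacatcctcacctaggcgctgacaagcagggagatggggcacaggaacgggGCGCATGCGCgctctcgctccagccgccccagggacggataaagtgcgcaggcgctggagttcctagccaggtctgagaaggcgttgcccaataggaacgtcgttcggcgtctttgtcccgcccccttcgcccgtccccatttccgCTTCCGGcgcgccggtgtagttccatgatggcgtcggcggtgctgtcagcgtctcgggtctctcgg
Uqcrh: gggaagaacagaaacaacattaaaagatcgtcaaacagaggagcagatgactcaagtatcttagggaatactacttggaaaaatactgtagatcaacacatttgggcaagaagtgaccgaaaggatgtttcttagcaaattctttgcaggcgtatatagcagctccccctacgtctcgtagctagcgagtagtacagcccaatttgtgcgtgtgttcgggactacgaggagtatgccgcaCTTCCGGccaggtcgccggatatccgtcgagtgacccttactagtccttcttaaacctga
Uqcrc1: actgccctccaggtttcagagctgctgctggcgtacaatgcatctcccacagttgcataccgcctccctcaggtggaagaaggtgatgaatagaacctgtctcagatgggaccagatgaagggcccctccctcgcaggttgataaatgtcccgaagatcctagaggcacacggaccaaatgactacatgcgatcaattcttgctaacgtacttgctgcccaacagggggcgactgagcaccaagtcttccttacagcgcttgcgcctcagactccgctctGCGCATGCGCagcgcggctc

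Libraries held 18501136 to 23286814 estimated counts. Levels compared between samples are in CPM, counts scaled to a common library total with TMM factors, and levels compared between genes are in the deposited TPM, which allow for transcript length as well. Summed levels of 12 microglia markers were 43564 to 57080 CPM in repopulated, 50606 to 56762 in control and 48133 to 55901 in wild-type libraries, and 8 markers of disease-associated microglia summed to 11749 to 13204 CPM in repopulated, 11116 to 22874 CPM in control and 698 to 1591 CPM in wild-type libraries. WT 3 stood apart. Its 7 neuron markers summed to 64.3 CPM, where the remaining wild-type libraries had 10.5 to 12.9 CPM, and it was also highest in 6 astrocyte (385 CPM), 6 oligodendrocyte (93.9 CPM) and 5 erythrocyte markers (281 CPM). Transcripts of 4 Y-linked genes were at 8.47 CPM in control 1, 5.61 CPM in control 3 and 15.5 CPM in WT 2, and at 342 to 528 CPM in the other libraries. All repopulated libraries were thus high, and control 2 was the only high control library. Of the 6 monocyte and neutrophil markers the sum was 66.9 to 142 CPM in repopulated libraries, 27.2, 279 and 30.8 CPM in control libraries and 45.1 to 213 CPM in wild-type libraries, so control 2 was highest. The 5 border macrophage markers summed to 39.7 to 67.2 CPM in repopulated, 48.7 to 91.0 CPM in control and 47.9 to 84.8 CPM in wild-type libraries. The 6 endothelium and pericyte markers summed to 29.7 to 38.2 CPM in repopulated, 34.0 to 37.3 CPM in control and 15.3 to 39.4 CPM in wild-type libraries. That sum hides markers that differed in opposite directions. Flt1 was at 14.7 to 26.2 CPM in 5xFAD and 0.724 to 2.28 CPM in wild-type libraries. Pecam1 was at 9.11 to 20.3 CPM in 5xFAD and 11.9 to 38.1 CPM in wild-type libraries, and the others were at most at 0.674 CPM. Lymphocyte markers summed to at most 0.353 CPM. No microglia marker was at 0 throughout. What part these differences had in the results was not tested beyond the values given with them. In sorted bulk samples, fewer cells of a type and less RNA per cell cannot be told apart.

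All 80 tested members were present in all groups, at mean levels over the 10 libraries between 31.5 TPM (Ndufa11, an accessory complex I subunit) and 949 TPM (Cox6b1, a complex IV subunit on the intermembrane side). The low place of Ndufa11 is uncertain. In wild-type libraries it averaged 44.6 CPM and 31.9 TPM (545 nt), where Cox8a averaged 59.6 CPM and 340 TPM (550 nt). The deposited TPM thus treat Ndufa11 as far longer than 545 nt. Cox7c (946 TPM), Uqcr11 (918 TPM), Ndufb8 (885 TPM), Ndufa1 (830 TPM) and Cox4i1 (771 TPM) came next to Cox6b1, and each differed from the next by less than the spread between libraries. The order was not that of every group, since Ndufa1 averaged 941 TPM in repopulated, 1302 TPM in control and 392 TPM in wild-type libraries. Several core subunits ranked low. Ndufs1, the large iron-sulfur subunit of complex I, was at 42.2 TPM, Ndufv1, the NADH-binding subunit, at 67.0 TPM and Uqcrfs1, the Rieske iron-sulfur protein, at 75.3 TPM. Summed over the 85 genes, TPM averaged 24660.4 ± 787 in repopulated, 27088 ± 1985 in control and 21975 ± 3165 in wild-type libraries (SD, n = 3, 3 and 4), which is 2.47%, 2.71% and 2.20% of each library's TPM. Wild-type libraries spread widely, and WT 3 (26265 TPM) lay within the control range while WT 1 (19877 TPM), WT 2 (22435 TPM) and WT 4 (19323 TPM) lay below every 5xFAD library. TPM shares add to a constant within a library, so differences between groups on this scale are not those on the CPM scale used for the tests.

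In 5xFAD control microglia, compared with wild-type microglia, 38 of the 80 tested members rose and 0 fell (edgeR quasi-likelihood test, Benjamini-Hochberg adjusted p under 0.05). Among all 12505 tested genes 18.1% were called, 10.1% as higher and 8.04% as lower. The median log2 fold change of the members was 0.51, against -0.06 over all tested genes, and 71 of 80 lay above 0, as did 45.7% of all tested genes. In 39 members every control library was above every wild-type library, which held for 14.1% of all tested genes. DESeq2 called 44 members, all higher, when it called 21.8% of all genes. Without control 1 the count was 19, when 10.2% of all genes were called. Leaving out the 3 libraries low in Y-linked transcripts leaves control 2 as the only control library, and the median was then 0.59.

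**Figure D1:**
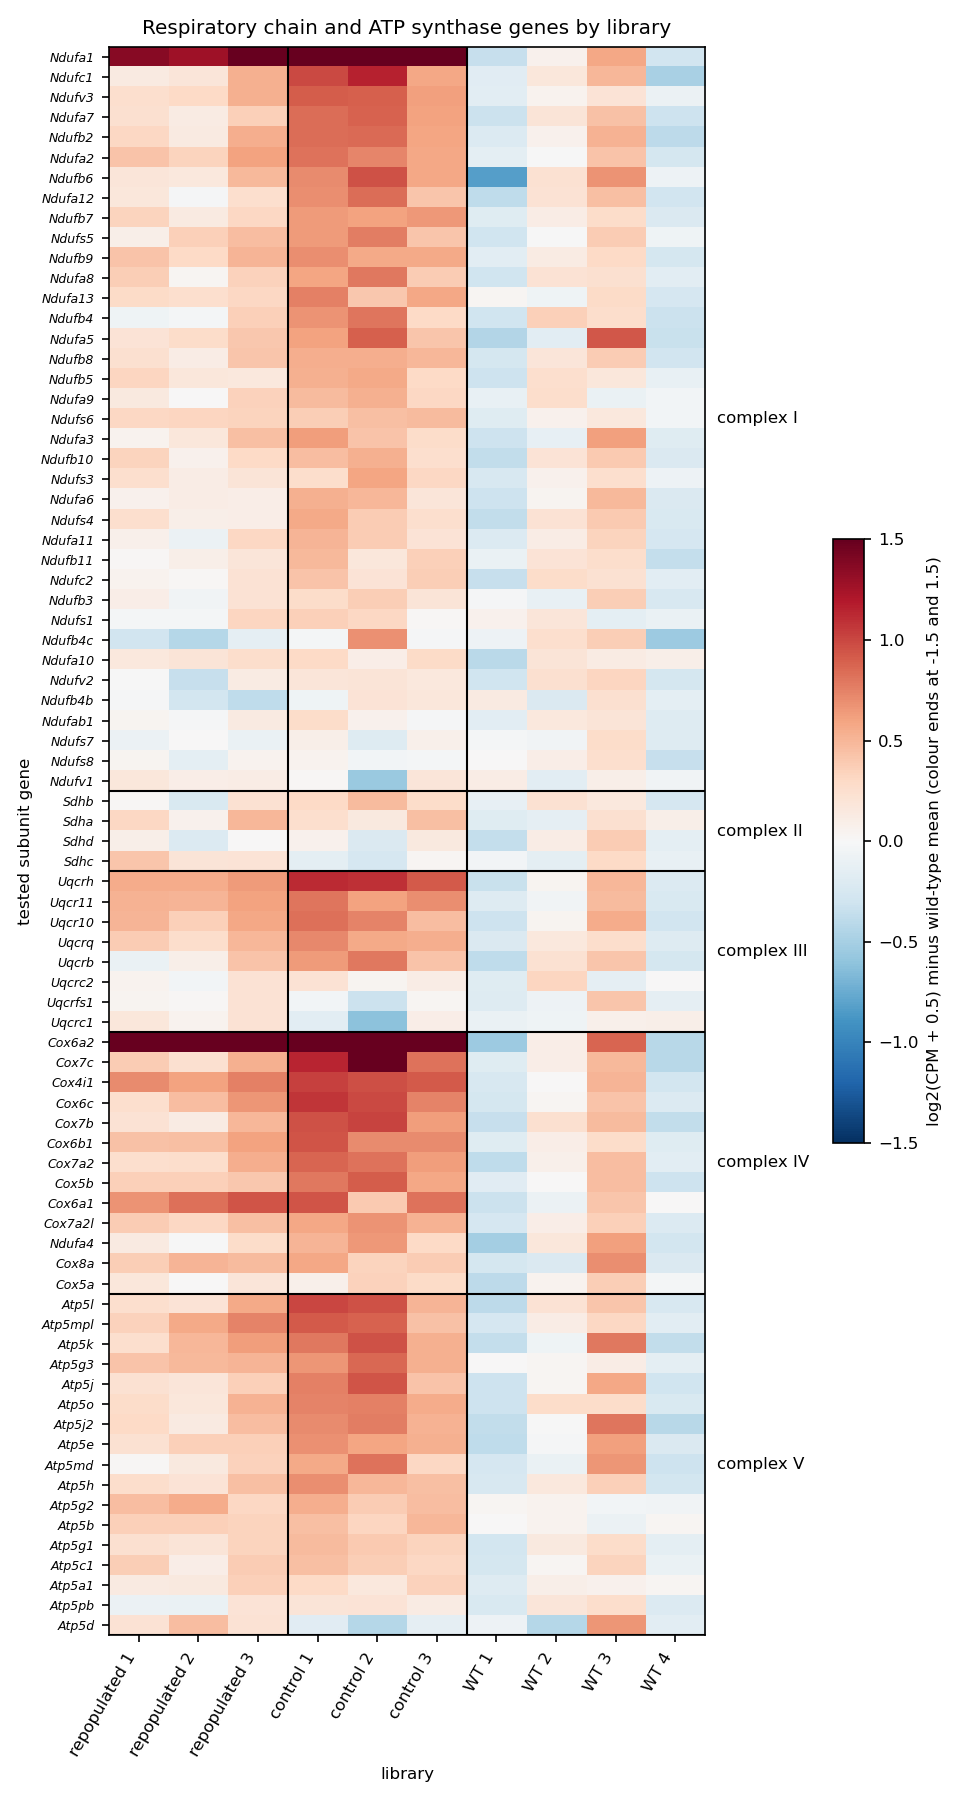
Heat map of tested subunit genes (rows, by complex and by fold change of control over wild type) in the 10 libraries (columns). Colour is log2 CPM (with 0.5 added) minus the mean of the 4 wild-type libraries, with the scale clipped at both ends. Control libraries are red for most supernumerary subunits, Ndufa1 and Cox6a2 are dark red in both 5xFAD groups, WT 3 is redder than the other wild-type libraries, and complex II is pale throughout.

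The complexes differed in how many members rose. In complex IV 10 of 13 rose (median log2 fold change 0.75), in complex III 5 of 8 (0.60), in complex V 8 of 17 (0.53), in complex I 15 of 38 (0.42) and in complex II 0 of 4 (0.13). Median transcript length ran from 645 nt in complex IV to 2065.5 nt in complex II. With the GC and length offsets described below, 3 of 13 rose in complex IV (median 0.27) and 2 of 8 in complex III (0.03). In complex V 1 of 17 then rose (0.17), in complex I 3 of 38 (0.08) and in complex II 0 of 4 (-0.01). In the same fit 1 member fell in complex IV and 1 in complex V. Over all tested genes 8.42% rose and 10.5% fell with these offsets, so complexes I and V were near the share that rose. Core and supernumerary subunits also differed in their counts. Of 19 subunits listed here as the catalytic or redox core, 2 rose (Cox4i1 and Atp5b), and the median log2 fold change of the 19 was 0.15. That list counts Uqcrc1, Uqcrc2, Cox4i1 and Cox5a as core and leaves the small subunits of complex III out. The counts of core and other subunits depend on it. Of the other 61 subunits 36 rose, with a median of 0.59. The core genes also have longer transcripts, with a median of 1653 nt against 680 nt. With offsets for GC content and transcript length in each library, 2 of the 19 core subunits rose (median log2 fold change -0.05) and 7 of the other 61 (0.16). In each of these sets 1 fell. Both were near the share of all tested genes that rose, and the difference in counts was not seen with the offsets.

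Complex I, the NADH dehydrogenase, had core and supernumerary genes that differed in this way when no offsets were used. None of its 7 core genes passed. Their median log2 fold change was -0.02. Ndufs1 had 78.6, 76.5 and 62.1 CPM in control libraries, against 64.5, 69.7, 55.6 and 57.2 CPM in wild-type libraries (log2 fold change 0.23, SE 0.15, edgeR adjusted p = 0.299), and the groups overlapped. The NADH-binding Ndufv1 had 57.9, 38.6 and 64.8 CPM in control libraries, against 62.0, 51.3, 61.0 and 55.3 CPM in wild-type libraries (edgeR adjusted p = 0.731). Its control libraries lay on both sides of the wild-type range. Among the core genes Ndufs3, an iron-sulfur arm subunit, came nearest to the threshold, at 119 ± 14.7 and 90.6 ± 13.2 CPM in control and wild-type libraries (SD, n = 3 and 4), with an edgeR adjusted p of 0.0657, and of 0.0215 without WT 3. Ndufs7, Ndufs8 and Ndufv2 had log2 fold changes of -0.02, -0.02 and 0.15.

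Of the 31 supernumerary complex I genes 15 rose, with a median log2 fold change of 0.50, and all 31 lay above 0. Ndufa1 (Entrez 54405, chromosome X, 37187588 to 37191238), which encodes a small membrane-arm subunit needed for assembly of the complex, had 254, 269 and 194 CPM in control libraries, against 43.4, 58.0, 83.1 and 45.2 CPM in wild-type libraries. Every control library was more than 2 times above the highest wild-type library, WT 3. Ndufa1 rose 4.16-fold (log2 fold change 2.06, SE 0.21, edgeR adjusted p = 9.16e-06). It is X-linked, and the library with the most Ndufa1, control 2, has high levels of Y-linked transcripts while control 1 and 3 have low levels. What part X linkage had in the levels of Ndufa1 was not tested. Ndufv3 (chromosome 17, 31520115 to 31531326), an accessory subunit of the NADH-oxidising arm, had 106, 105 and 86.1 CPM in control libraries, against 50.2, 58.1, 64.8 and 52.9 CPM in wild-type libraries. The groups did not overlap, and Ndufv3 rose 1.75-fold (log2 fold change 0.81, SE 0.14, edgeR adjusted p = 0.000887). Ndufb7, a membrane-arm subunit on the intermembrane side, rose 1.53-fold to 159.8 ± 2.75 CPM in control libraries, against 104 ± 17.6 CPM in wild-type libraries (edgeR adjusted p = 0.00632). The 2 rows Ndufb4b and Ndufb4c are near-identical copies of Ndufb4, so the counts of all 3 are uncertain, and none of them passed.

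Complex II, the succinate dehydrogenase that also belongs to the citric acid cycle, has core subunits alone, and no member passed. Sdha, the flavoprotein, had 247, 231 and 283 CPM in control libraries, against 183, 189, 245 and 221 CPM in wild-type libraries (log2 fold change 0.28, SE 0.14, edgeR adjusted p = 0.203). Only WT 3 reached into the control range. Sdhb, the iron-sulfur subunit, had 352, 396 and 344 CPM in control libraries, against 262, 334, 318 and 239 CPM in wild-type libraries, without overlap (edgeR adjusted p = 0.132). The membrane anchors Sdhc and Sdhd had log2 fold changes of -0.13 and -0.02.

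Complex III, the cytochrome bc1 complex, divided into 3 core genes that did not pass and 5 small subunits that all rose. Uqcrc1, a core protein, had 322, 234 and 384 CPM in control libraries, against 336, 343, 378 and 381 CPM in wild-type libraries (log2 fold change -0.20, SE 0.15, edgeR adjusted p = 0.395). Control 2 was far below the wild-type range and control 3 just above it. Uqcrc2, its partner, and Uqcrfs1 had log2 fold changes of 0.11 and -0.13. Uqcrh (chromosome 4, 116066965 to 116075070), the hinge protein beside cytochrome c1, had 96.8, 95.5 and 84.4 CPM in control libraries, against 35.2, 45.7, 62.8 and 38.5 CPM in wild-type libraries. Groups did not overlap, and the gene rose 2.02-fold (log2 fold change 1.02, SE 0.17, edgeR adjusted p = 0.000888). Uqcr11 rose 1.60-fold (edgeR adjusted p = 0.00919) and Uqcrq 1.51-fold (edgeR adjusted p = 0.0094). Without control 1 Uqcrq had an edgeR adjusted p of 0.0522.

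Complex IV, cytochrome c oxidase, held the largest change of all members. Cox6a2 (Entrez 12862, chromosome 7, 128205435 to 128206366) encodes the isoform of subunit 6a known from heart and skeletal muscle. It had 118, 85.3 and 112 CPM in control libraries, against 2.12, 3.61, 6.51 and 2.38 CPM in wild-type libraries. The lowest control library was above 10 times the highest wild-type library. Cox6a2 rose 28.8-fold (log2 fold change 4.85, SE 0.30, edgeR adjusted p = 7.37e-08). Cox7c, a small membrane subunit, had 192, 248 and 152 CPM in control libraries, against 76.7, 93.3, 122 and 64.8 CPM in wild-type libraries. It rose 2.22-fold (log2 fold change 1.15, SE 0.20, edgeR adjusted p = 0.00117).

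Cox4i1 (chromosome 8, 120668225 to 120674209), the largest nuclear-encoded subunit of the complex, had 345, 329 and 318 CPM in control libraries, against 142, 169, 241 and 139 CPM in wild-type libraries. The control libraries were close together and all above WT 3, the highest wild-type library. Cox4i1 rose 1.91-fold (log2 fold change 0.94, SE 0.17, edgeR adjusted p = 0.00139). Cox6b1 rose 1.72-fold (edgeR adjusted p = 0.00125), to 182 ± 18.1 CPM in control libraries, against 106 ± 16.9 CPM in wild-type libraries (SD, n = 3 and 4). Cox5a, which joins Cox4i1 early in assembly, had 38.2, 46.2 and 44.4 CPM in control libraries, against 27.4, 37.6, 46.8 and 35.3 CPM in wild-type libraries (edgeR adjusted p = 0.391). Ndufa4 and Cox8a also missed the threshold, with an edgeR adjusted p of 0.184 and 0.221. Without WT 3, in which both were highest among wild-type libraries, their edgeR adjusted p was 0.0117 and 0.00141.

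**Figure D2:**
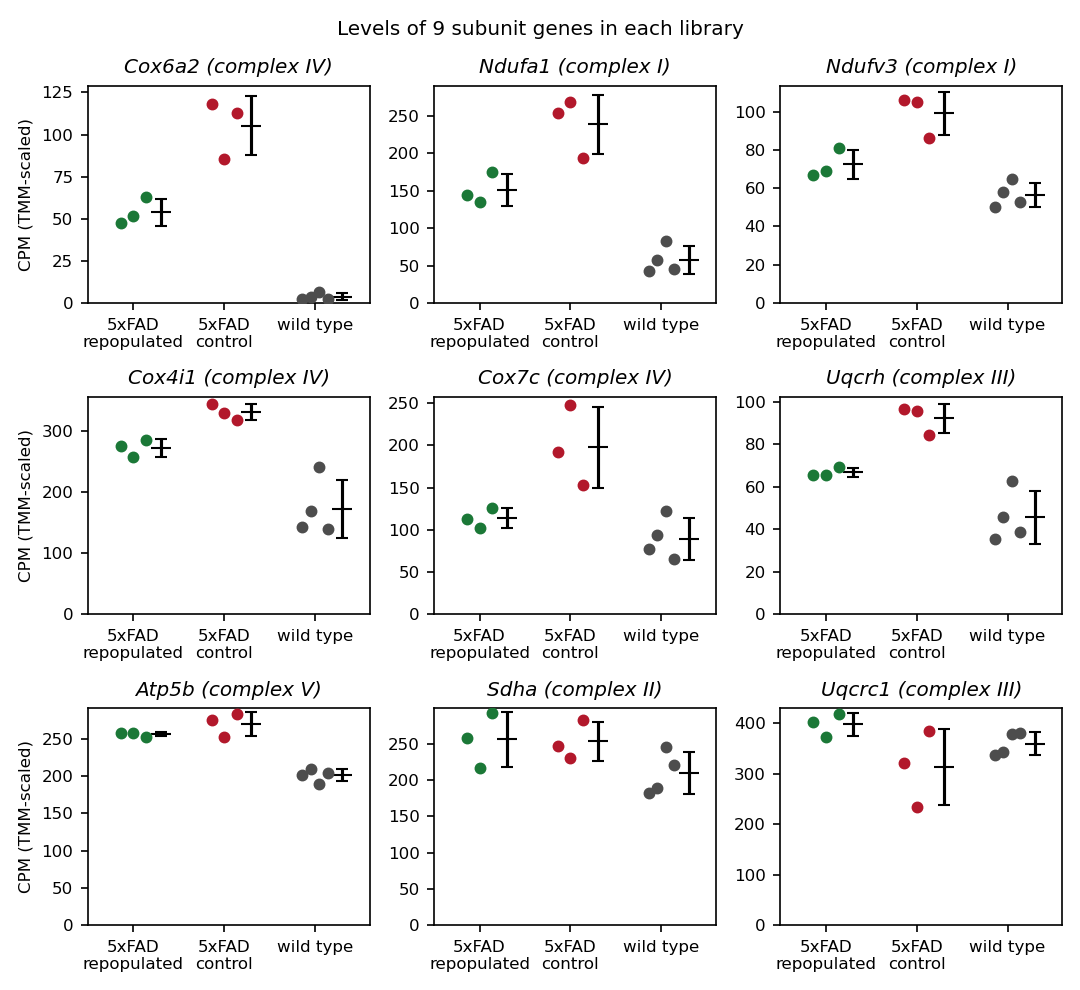
CPM of 9 subunit genes (panels, vertical axes from 0) in each library, with points for the 3 repopulated, 3 control and 4 wild-type libraries and bars for the mean ± SD of each group. Control points lie above all wild-type points for Cox6a2, Ndufa1, Ndufv3, Cox4i1, Cox7c, Uqcrh and Atp5b, and the groups overlap for Sdha and Uqcrc1.

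In ATP synthase 1 of the 5 genes of the F1 head, where ATP is made, rose. It was Atp5b, its catalytic beta subunit (chromosome 10, 128083307 to 128090388), which had 275, 253 and 284 CPM in control libraries, against 201, 209, 189.9 and 205 CPM in wild-type libraries. The spread was small in both groups, and Atp5b rose 1.34-fold (log2 fold change 0.43, SE 0.11, edgeR adjusted p = 0.0142), with 0.0634 without control 1 and 0.0541 without control 3. The alpha subunit gene Atp5a1 and the central stalk gene Atp5c1 had log2 fold changes of 0.27 and 0.36 (edgeR adjusted p = 0.145 and 0.10). Atp5c1 had 0.018 without WT 3. Atp5d, the delta subunit of the central stalk and chosen here after its values were seen, lay the other way, at 17.7, 14.7 and 18.1 CPM in control libraries, against 18.9, 14.7, 31.8 and 17.7 CPM in wild-type libraries (edgeR adjusted p = 0.391).

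Outside the F1 head, 3 of 4 peripheral stalk genes rose, 2 of 3 c-ring genes, and 2 of 5 small membrane subunits. Atp5o, the stalk subunit that holds the F1 head, rose 1.58-fold (edgeR adjusted p = 0.0113), and Atp5l, the small g subunit at the dimer interface, rose 1.75-fold (edgeR adjusted p = 0.0101, and 0.0547 without control 1). Genes of the c-ring encode an identical mature protein with different import signals. Atp5g3 had 23.5, 27.2 and 21.5 CPM in control libraries, against 14.7, 15.0, 15.9 and 13.3 CPM in wild-type libraries, with no overlap. It rose 1.63-fold (log2 fold change 0.71, SE 0.16, edgeR adjusted p = 0.0065). Atp5g2 rose 1.39-fold (edgeR adjusted p = 0.0232, and 0.0595 to 0.104 without control 1, control 3 or WT 4). Atp5g1, the isoform with the most transcripts, was 1.31-fold higher without passing (edgeR adjusted p = 0.0716, and 0.0198 without WT 3).

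Members with shorter transcripts had higher fold changes. Across the 78 members with a length, the rank correlation of length with the log2 fold change of control over wild type was -0.59, and across 12226 tested genes with a length it was -0.12. These are descriptions across genes, which share the same 7 libraries. Of 36 members with transcripts under 750 nt 24 rose (median log2 fold change 0.66), of 23 with at least 750 and under 1500 nt 10 rose (0.55), and of 19 with 1500 nt or more 4 rose (0.23). Genes that are no members showed the same order. Of 266 with transcripts under 750 nt 89 rose and 4 fell (median 0.44), and the medians were 0.11 for 1525 genes of at least 750 and under 1500 nt and -0.09 for 10357 genes of 1500 nt or more.

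The same held library by library. The median of the members, as log2 CPM minus the wild-type mean, was 0.24, 0.16 and 0.36 in repopulated libraries, 0.58, 0.57 and 0.42 in control libraries, and -0.25, 0.08, 0.37 and -0.21 in wild-type libraries. The median of other genes under 750 nt was 0.20, 0.19 and 0.30 in repopulated, 0.51, 0.58 and 0.35 in control and -0.19, 0.03, 0.33 and -0.17 in wild-type libraries. WT 3 was high and WT 1 and WT 4 were low in both. When the trend of log2 CPM with GC content and transcript length in each library was taken out as offsets, the median log2 fold change of the members was 0.12, against -0.10 over all genes, and 9 members rose and 2 fell, where 8.42% and 10.5% of all genes rose and fell. The 9 were Cox6a2, Ndufa1, Ndufv3, Cox4i1, Atp5b, Ndufa13, Uqcrq, Cox7c and Uqcrh, and the 2 that fell were Cox5a and Atp5md (Ndufa13 and Atp5md were named after their values were seen). With these offsets Cox6a2 had a log2 fold change of 4.44, Ndufa1 of 1.23, Ndufv3 of 0.92 and Cox4i1 of 0.76. In wild-type libraries Ndufv3 averaged 56.5 CPM and 335 TPM, near Ndufa1 (419 nt, 57.4 CPM and 392 TPM). The deposited TPM thus treat Ndufv3 as far shorter than the 1582 nt used here, so its offset and its length class are uncertain. The same holds for Atp5g1 (4715 nt, 93.4 CPM and 292 TPM) beside Ndufs3 (1046 nt, 90.6 CPM and 223 TPM). It also holds for Ndufb8 (2142 nt, 223 CPM and 836 TPM) and Ndufab1 (3479 nt, 75.0 CPM and 293 TPM). Ndufa11 (545 nt, 44.6 CPM and 31.9 TPM) is treated as far longer. The length classes, the correlation with length and the offsets are therefore uncertain for several members. Whether length itself, or something that goes with it, is behind this pattern was not tested.

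**Figure D3:**
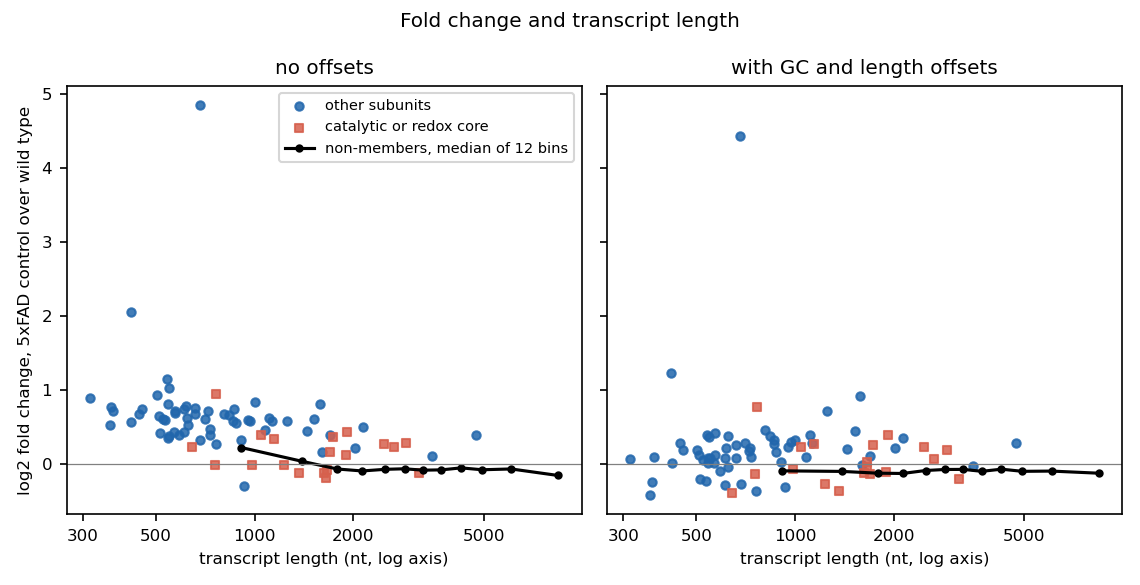
Log2 fold change of control over wild type (vertical axis) against transcript length in nt (log axis) for 78 tested members, with the median of other genes in 12 bins as a line. Without offsets (left) short members lie highest and long core members near 0, and with GC and length offsets (right) the rank correlation is 0.10, with Cox6a2 at 4.44 and Ndufa1 at 1.23 still apart.

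**Figure D4:**
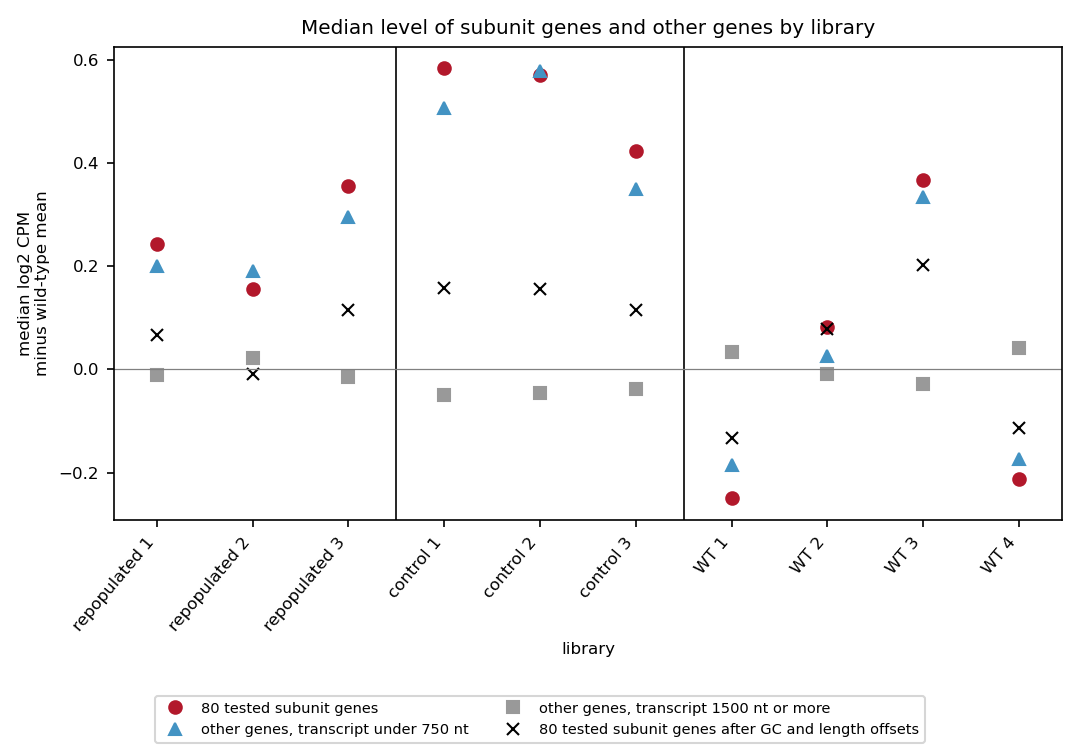
Median log2 CPM minus the wild-type mean (vertical axis) in each of the 10 libraries (horizontal axis) for the 80 tested subunit genes, for other genes with transcripts under 750 nt and of 1500 nt or more, and for the subunit genes after GC and length offsets. Subunit genes and other short genes sit together in every library, with the highest values in control libraries and in WT 3.

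The next comparison set 5xFAD microglia after depletion and return beside 5xFAD microglia of mice on normal diet. Y-linked transcripts were high in all repopulated libraries but in control 2 alone among control libraries, and the labels give no age for control mice. Effects of treatment cannot be fully told apart from these differences. No member passed (edgeR, 0 of 80), where 0.568% of all tested genes were called. A p that misses the threshold does not show that levels were equal. At an unadjusted p under 0.05 the same test gave 17 lower and 2 higher members, and 18.5% of all genes passed that rule, 8.78% as lower. DESeq2 called 4 members (Cox6a2, Cox7c, Ndufa1 and Ndufv3), all lower, when it called 9.42% of all genes. The median log2 fold change of the members was -0.25, against 0.00 over all genes, and 71 of 80 lay below 0, as did 50.1% of all genes. In 39 members every repopulated library was below every control library, against 15.7% of all genes. Without WT 3, which enters through the shared estimate of spread, 3 members fell (Cox6a2, Cox7c and Ndufa1), where 2.66% of all genes were called. With offsets for GC content and length the median was -0.09.

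Cox7c came nearest to the threshold. It had 113, 103 and 126 CPM in repopulated libraries, against 192, 248 and 152 CPM in control libraries, without overlap (log2 fold change -0.80, SE 0.22, edgeR adjusted p = 0.0936, and 0.0384 without WT 3). Cox6a2 had 47.2, 51.6 and 62.7 CPM in repopulated libraries, against 118, 85.3 and 112 CPM in control libraries, again without overlap (log2 fold change -0.97, SE 0.28, edgeR adjusted p = 0.113, and 0.0215 without WT 3). Ndufa1 had 144, 135 and 176 CPM in repopulated libraries, against 254, 269 and 194 CPM in control libraries (log2 fold change -0.65, SE 0.22, edgeR adjusted p = 0.143, and 0.0498 without WT 3). All 3 genes had every repopulated library between the control and the wild-type values, except that Cox7c in WT 3 (122 CPM) lay inside the repopulated range. Ndufv3 and Ndufa7 had log2 fold changes of -0.45 and -0.54 (edgeR adjusted p = 0.139 and 0.155).

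A few members lay the other way. Sdhc, a membrane anchor of complex II, had 55.3, 47.5 and 47.9 CPM in repopulated libraries, against 37.2, 34.7 and 42.3 CPM in control libraries (log2 fold change 0.40, SE 0.16, edgeR adjusted p = 0.200). Atp5d had 23.2, 27.5 and 23.1 CPM in repopulated libraries, against 17.7, 14.7 and 18.1 CPM in control libraries (log2 fold change 0.55, SE 0.25, edgeR adjusted p = 0.248). These were the 2 members whose repopulated libraries were all above the control libraries, against 15.0% of all genes, and neither passed. The catalytic subunits Sdha and Atp5b had log2 fold changes of 0.01 and -0.08, with standard errors of 0.15 and 0.12.

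Against wild-type microglia, repopulated 5xFAD microglia had 4 members that rose and 0 that fell (edgeR adjusted p under 0.05), where 4.18% of all tested genes were called, 3.40% as higher and 0.784% as lower. This comparison shares its wild-type libraries with the first and its repopulated libraries with the second. The median log2 fold change was 0.24, against -0.02 over all genes, 72 of 80 lay above 0 (46.6% of all genes), and in 14 every repopulated library was above every wild-type library (9.13% of all genes). Without WT 3 the count was 18, when 5.58% of all genes were called. Without repopulated 2, repopulated 3 or WT 2 it was 2, when 2.19% to 3.09% of all genes were called. It was also 2 with GC and length offsets, under which 3.33% of all genes rose and the 2 members were Cox6a2 and Ndufa1.

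Cox6a2 rose 14.7-fold, at 47.2, 51.6 and 62.7 CPM in repopulated libraries, against 2.12, 3.61, 6.51 and 2.38 CPM in wild-type libraries (log2 fold change 3.88, SE 0.29, edgeR adjusted p = 9.7e-07). Ndufa1 rose 2.64-fold, at 144, 135 and 176 CPM in repopulated libraries, against 43.4, 58.0, 83.1 and 45.2 CPM in wild-type libraries (log2 fold change 1.40, SE 0.20, edgeR adjusted p = 0.000605). In both genes the groups were far apart. Cox6a1, the ubiquitous isoform, had 114, 127 and 138 CPM in repopulated libraries, against 57.0, 67.1, 95.8 and 71.6 CPM in wild-type libraries. It rose 1.74-fold (log2 fold change 0.80, SE 0.17, edgeR adjusted p = 0.0156), with 0.0652 without repopulated 2, 0.0876 without repopulated 3 and 0.0522 without WT 2. Cox4i1 had 275, 257 and 285 CPM in repopulated libraries, against 142, 169, 241 and 139 CPM in wild-type libraries. The groups did not overlap and Cox4i1 rose 1.58-fold (log2 fold change 0.66, SE 0.17, edgeR adjusted p = 0.0382), but its call held in 8 of 24 alternatives. Of the fits that left out 1 library it held without control 2 and without WT 3, and leaving out any 1 of the other 8 libraries gave an edgeR adjusted p of 0.0519 to 0.149.

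Several complex IV subunits exist as alternative isoforms that differ between tissues, and Cox6a was the family whose balance differed between groups. Cox6a2 made up 24.3%, 23.9% and 26.1% of the summed TPM of Cox6a1 and Cox6a2 in repopulated libraries, 39.9%, 41.4% and 41.0% in control libraries, and 2.83%, 4.02%, 5.03% and 2.52% in wild-type libraries. The 3 groups did not overlap, and the spread within each was small, with means of 24.8 ± 1.13%, 40.8 ± 0.751% and 3.60 ± 1.15% (SD, n = 3, 3 and 4). The share used the measure in which Cox6a2 was found to differ and is given as a description, without a test. Cox6a1 rose in control microglia as well, 1.64-fold, at 139, 94.4 and 126 CPM in control libraries, against 57.0, 67.1, 95.8 and 71.6 CPM in wild-type libraries (edgeR adjusted p = 0.0111, and 0.0684 without control 1). Control 2 lay just below WT 3.

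**Figure D5:**
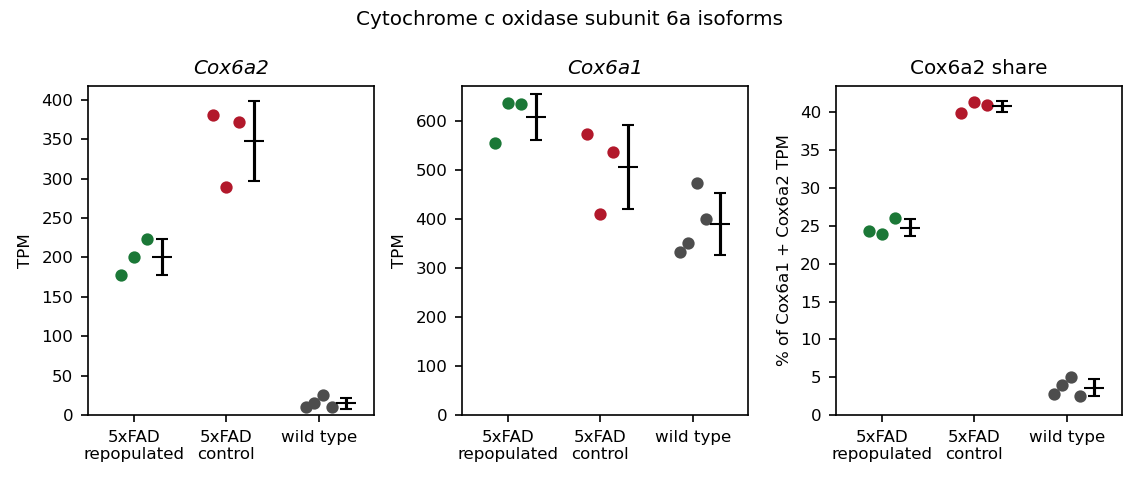
TPM of Cox6a2 and Cox6a1, and the share of Cox6a2 in their sum in percent (vertical axes from 0), for each library, with points for libraries and bars for the mean ± SD of the 3 repopulated, 3 control and 4 wild-type libraries. The Cox6a2 share is near 25% in repopulated, near 41% in control and at most 5.03% in wild-type libraries.

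The other tissue-restricted isoforms of complex IV were at the limit of detection and were not tested. Summed over the libraries of a group, Cox4i2, known from lung, had 3 estimated counts in repopulated, 3 in control and 12 in wild-type libraries. The testis isoform Cox6b2 had 30, 18 and 12 counts, the muscle isoform Cox7a1 had 12, 27 and 21 counts, Cox7b2 had 0, 0 and 5 counts, and Cox8b was at 0 in all libraries. Of the wild-type counts WT 3 alone held 8 for Cox4i2 and 4 for Cox7b2. A total at or under 3 counts is at the floor that counting error alone allows. Their ubiquitous partners Cox7a2 and Cox7b rose in control microglia 1.68-fold and 1.78-fold (edgeR adjusted p = 0.00998 and 0.0109), and Cox7a2l, known for joining complexes III and IV into supercomplexes, 1.49-fold (edgeR adjusted p = 0.014). In the c-ring family Atp5g1 held 61.3 ± 2.32% of the summed TPM in repopulated, 62.2 ± 0.455% in control and 64.3 ± 3.88% in wild-type libraries (SD, n = 3, 3 and 4), and the groups overlapped.

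The other genes of the pathway are given by list, beside shares of 10.1% higher and 8.04% lower over all tested genes in control against wild-type microglia. Of 50 assembly factor genes 6 rose and 3 fell, with a median log2 fold change of 0.05, which is near those shares. Timmdc1, a complex I assembly factor, rose to 159 ± 4.27 CPM in control libraries, against 103 ± 14.1 CPM in wild-type libraries (log2 fold change 0.63, SE 0.13, edgeR adjusted p = 0.00371). Cox17, the copper chaperone of complex IV, rose with a log2 fold change of 0.72 (edgeR adjusted p = 0.00984), and Cox10, an enzyme of haem a synthesis, fell by 0.77 on the log2 scale (edgeR adjusted p = 0.0137). Of 4 tested carriers and subunits outside the naming rule 2 rose, Cycs, which is cytochrome c (log2 fold change 0.54, edgeR adjusted p = 0.0356), and Atpif1, the inhibitor of ATP synthase (0.56, edgeR adjusted p = 0.0364). Of 16 regulators of mitochondrial biogenesis 0 rose and 1 fell, which was Esrra, the nuclear receptor ERR alpha, at 3.54 ± 0.641 CPM in control and 6.89 ± 1.89 CPM in wild-type libraries (log2 fold change -0.96, edgeR adjusted p = 0.0388). Of 24 outer membrane and import genes 7 rose, among them the small import pore subunits Tomm6 and Tomm7 (log2 fold changes 0.82 and 0.94). Of 14 cristae and inner membrane genes 3 rose, which were Micos10, Micos13 and the phosphate carrier Slc25a3 (0.73, 0.74 and 0.54). With GC and length offsets, 1 assembly factor gene rose and 6 fell in this comparison (median -0.15), and 0 carriers and subunits rose. Of the import genes 3 then rose and 2 fell, of the cristae genes 1 rose and 1 fell, and of the regulators 0 rose and 1 fell. Over all tested genes 8.42% rose and 10.5% fell with these offsets. No gene of these lists passed with edgeR in the 2 comparisons of repopulated microglia.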

How the data were processed

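RNA was measured in 10 libraries of sorted hippocampal microglia. Per the file headers the authors deposited read counts that were not normalised, and these are estimated counts because 20.1% of the nonzero values are not whole (tolerance 0.001). The deposited FPKM are scaled for gene length and depth and were not used. The deposited TPM are scaled likewise to a common total and served for levels between genes and shares of isoforms. Per the submitters' processing notes the tools included HISAT and Bowtie2 on GRCm38.p6, and the quantifier is not given in the sources used here. Reads of near-identical genes may be divided among them.

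Rounded counts went into edgeR 4.0.16 (R 4.3.3, limma 3.58.1) with filterByExpr, TMM, robust quasi-likelihood fits, 1 model of 3 groups over 10 libraries, and Benjamini-Hochberg adjustment over all 12505 tested genes at 0.05. The prior count was 0.125, and standard errors were derived from the log2 fold change and its F statistic. The biological coefficient of variation was 27.3%. Coordinates come from RefSeq, matched for 19725 genes. Length and GC content were those of the longest GENCODE M21 transcript with a RefSeq accession (97.5% of tested members had one), and offsets were smooth trends of log2 CPM on both, fitted per library with mgcv 1.9.3. Alternatives were other scalings and filters, DESeq2 1.42.0, each library left out, a replicate block, a term for Y-linked transcripts, the compared groups alone and the offsets. GC or length offsets alone, and offsets without WT 3, were chosen after seeing the data. None of 12 pairs of libraries within groups matched to within counting error. The fit was tested on simulated data. The members and lists were chosen with earlier results of these data known. Genes named are the core subunits, isoform families, the 3 members of each complex with the smallest p for control against wild type, the 5 with the smallest p for repopulated against control, members called in repopulated against wild type, and up to 3 genes of each other list. Ndufa11, Ndufb8, Ndufab1, Ndufb4 and its copies, Ndufa13, Atp5d and Atp5md were named after their values were seen. Some items that this rule names are not reported here.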

Additional observations from a re-analysis of the deposited data

Results flagged for a closer look

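Among the 40 named members, 2 had a wild-type library far from the other 3, both WT 3 and both high. Chance marks about 1 in 20 such groups, which is about the share found. Uqcrfs1, the Rieske protein of complex III, was at 67.9 CPM in WT 3 and at 44.4 to 48.2 CPM in the remaining 3. Cox8a, a small subunit of complex IV, was at 93.0 CPM in WT 3 and at 47.4 to 49.1 CPM in the others. Of the alternatives run, leaving out WT 3 was the 1 under which control and repopulated microglia passed against wild type for Cox8a, with an edgeR adjusted p of 0.00141 and 0.00278. WT 3 is the library with the highest summed markers of neurons, astrocytes, oligodendrocytes and erythrocytes, and what part those had in these levels was not tested.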

How the results depend on the processing

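For control against wild type the count of called members was 38 of 80, where 18.1% of all tested genes were called. It was 23 with a replicate block (11.7% of all genes), 11 with GC and length offsets (18.9%) and 6 with the replicate block and these offsets (14.6%). With length offsets alone the count was 12 (17.4%), and with both offsets and WT 3 left out 24 (23.1%). Without the libraries low in Y-linked transcripts the median log2 fold change of the members was 0.59. Leaving out 1 library gave 19 (without control 1, 10.2% of all genes) to 56 (without WT 3, 23.6%). Other scalings, filters, DESeq2, GC offsets alone, a term for Y-linked transcripts and the 2 groups alone gave 28 to 44. In those fits 11.3% to 23.5% of all genes were called. For repopulated against control the count was 0 (0.568% of all genes), and 4 with DESeq2 (9.42%). It was 3 with both offsets and WT 3 left out (1.76%) and 7 with the 2 groups alone (5.26%). Without 1 library it was 0 to 3, with 3 without WT 3 (2.66%). For repopulated against wild type it was 4 (4.18% of all genes), and 7 with DESeq2 (6.26%). It was 2 with GC and length offsets, with these and the replicate block, and with GC or length offsets alone (3.82% to 5.27%). Without 1 library it was 2 to 18, with 18 without WT 3 (5.58%). Without the libraries low in Y-linked transcripts the median log2 fold change was 0.27. The cause of these moves was not tested. Cox5a, not called for control against wild type (log2 fold change 0.22), was called as lower with both offsets (-0.39) and with WT 3 also left out (-0.39). It was the 1 named member whose called value changed sign. Same-numbered libraries did not deviate together more than others (correlations of -0.10 to 0.07, against -0.11 to 0.13 for unlike numbers). Deviations from the means of so few libraries cannot exclude that the numbers pair the samples, and the labels do not say that they do. WT 4 has no partner in the replicate block. In all 24 alternatives Cox6a2, Ndufa1 and Ndufv3 were called for control against wild type, and Cox6a2 and Ndufa1 for repopulated against wild type. For Ndufv3 the alternatives with length offsets rest on an uncertain transcript length. With 3 or 4 libraries a group, the smallest fold change that passed for a member was 1.34 (Atp5b).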

Other observations

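Across 12226 tested genes with a transcript, the log2 fold change of repopulated over control microglia had a rank correlation of 0.44 with GC content and of 0.04 with length, and across 78 members it had 0.21 with GC content and 0.46 with length. For control over wild type the correlation with GC content was -0.26 across all tested genes and -0.02 across members. These are descriptions across genes that share the same libraries. Median GC content was 51.1% for the tested members and 49.9% for all tested genes, and median transcript length was 787 nt and 3042 nt.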
